A study of Mus musculus with 12 samples.

Results

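The collagen genes were all genes whose array symbol has the form of Col1a1 or Col14a1, that is Col, a type number, the letter a and a chain number. Each gene was represented by 1 probe set, the one with the highest mean log2 signal over the arrays. This gave 36 of the 12393 genes measured. By structure they were 9 fibrillar collagens, 6 basement membrane collagens (type IV), 9 FACIT collagens (fibril-associated collagens with interrupted helices), 3 beaded filament collagens (type VI), 2 multiplexins, 2 short-chain network collagens, 3 transmembrane collagens and 2 others, Col7a1 and Col26a1. A further 9 genes of these classes, namely Col24a1, Col27a1, Col21a1, Col6a4, Col6a5, Col6a6, Col8a2, Col23a1 and Col28a1, were not analysed here.

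RNA was measured on 12 Affymetrix arrays, 3 for each of 4 groups of mouse fibroblasts: GFP+ and GFP- cells of inguinal fat, and the same of epididymal fat. The cells were grown from the stromal vascular fraction, the part of fat other than the fat cells, of Zfp423-GFP transgenic males of FVB and C57BL/6 background, aged 6 to 8 weeks. They were sorted by GFP, a fluorescent reporter here linked to Zfp423, a zinc finger transcription factor known for committing cells to the fat lineage, and were then cultured again and harvested while still proliferating. All 4 groups carried the transgene and shared sex, age range, strain background and medium, so that they differed in depot and in GFP. What drives the reporter, and whether the sorted cells kept their GFP state in culture, is not given in the sources used here. The labels do not say whether arrays of a group stand for different mice or cultures; the p-values therefore reflect just the scatter among these arrays, part or all of which may be technical.

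Collagens are secreted proteins whose chains wind around each other into a helix, and they make up most of the extracellular matrix of connective tissue. Fibrillar collagens assemble into the fibrils that bear tension, and FACIT collagens sit on the surface of those fibrils. Type IV collagen forms the sheet of the basement membrane, which surrounds each fat cell and lines vessels and epithelia, and multiplexins lie at the border between that sheet and the fibrils. Type VI collagen forms beaded filaments close to the cell surface and is abundant in fat tissue. Many collagens are built from chains of different genes, so that a helix needs the products of several genes in a fixed ratio. Stromal fibroblasts and their descendants make most of the collagen of a fat depot.

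Several of these genes lie beside one another, and the promoters of such pairs are shown because the results below turn on whether neighbours moved together. Windows run from 250 bases before to 50 bases after the transcription start annotated by RefSeq, on the gene's own strand, build GRCm38.p6. Col4a1, at chr8:11312777-11313076 (minus strand), and Col4a2, at chr8:11312555-11312854 (plus strand), are transcribed in opposite directions from starts that lie 21 bases apart. Their windows therefore share 78 bases, in capitals, which read as the reverse complement of each other.
Col4a1: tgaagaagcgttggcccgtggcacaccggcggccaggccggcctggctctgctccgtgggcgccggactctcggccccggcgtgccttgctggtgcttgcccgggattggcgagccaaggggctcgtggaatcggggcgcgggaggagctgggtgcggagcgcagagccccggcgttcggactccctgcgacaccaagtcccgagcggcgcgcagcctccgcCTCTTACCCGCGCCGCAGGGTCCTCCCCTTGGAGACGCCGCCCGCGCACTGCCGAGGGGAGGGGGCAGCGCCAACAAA
Col4a2: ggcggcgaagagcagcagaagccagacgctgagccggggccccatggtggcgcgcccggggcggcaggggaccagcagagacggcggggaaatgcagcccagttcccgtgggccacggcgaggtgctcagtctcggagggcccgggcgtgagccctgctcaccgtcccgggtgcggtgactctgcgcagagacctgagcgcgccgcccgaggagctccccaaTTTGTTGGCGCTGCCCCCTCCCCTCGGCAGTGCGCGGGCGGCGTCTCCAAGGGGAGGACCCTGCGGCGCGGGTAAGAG

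Col4a5, at chrX:141475169-141475468 (plus strand), and Col4a6, at chrX:141474027-141474326 (minus strand), are another pair of type IV genes read away from each other, but their starts are 1343 bases apart and the windows share no base. Capitals mark, on either strand, the letters TATAAA of a TATA box, a CCAAT box as its name spells it, and the letters GGGCGG of a GC box. Over all 32851 mouse promoter windows of this length, a TATA box was found in 13.6%, a CCAAT box in 37.4% and a GC box in 35.7%. A match is a description of the letters and no evidence of a bound factor.
Col4a5: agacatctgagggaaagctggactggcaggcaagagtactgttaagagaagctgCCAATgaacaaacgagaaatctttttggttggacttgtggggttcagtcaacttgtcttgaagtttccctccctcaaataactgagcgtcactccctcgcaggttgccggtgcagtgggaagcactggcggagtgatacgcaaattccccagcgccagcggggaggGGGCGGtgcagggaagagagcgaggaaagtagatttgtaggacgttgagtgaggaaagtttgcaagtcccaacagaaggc
Col4a6: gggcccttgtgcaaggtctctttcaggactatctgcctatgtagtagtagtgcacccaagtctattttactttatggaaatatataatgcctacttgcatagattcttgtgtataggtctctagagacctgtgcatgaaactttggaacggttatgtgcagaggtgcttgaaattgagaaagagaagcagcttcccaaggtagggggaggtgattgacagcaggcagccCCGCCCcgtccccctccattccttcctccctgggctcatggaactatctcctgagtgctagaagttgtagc

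Type VI collagen is a helix of the products of Col6a1, Col6a2 and Col6a3. Col6a2 and Col6a1 are neighbours on chromosome 10 with 0 protein-coding genes between them and run in the same direction, whereas Col6a3 is on chromosome 1. Col6a2 has 2 annotated starts, of which the one further upstream is shown. The windows lie at chr10:76725995-76726294 (minus strand) for Col6a1, chr10:76623581-76623880 (minus strand) for Col6a2 and chr1:90843922-90844221 (minus strand) for Col6a3, with the same 3 motifs in capitals.
Col6a1: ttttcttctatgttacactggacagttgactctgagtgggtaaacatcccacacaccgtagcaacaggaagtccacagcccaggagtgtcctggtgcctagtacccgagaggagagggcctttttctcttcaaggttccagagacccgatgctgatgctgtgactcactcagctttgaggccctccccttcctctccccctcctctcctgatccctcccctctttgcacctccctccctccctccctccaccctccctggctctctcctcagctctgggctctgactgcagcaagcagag
Col6a2: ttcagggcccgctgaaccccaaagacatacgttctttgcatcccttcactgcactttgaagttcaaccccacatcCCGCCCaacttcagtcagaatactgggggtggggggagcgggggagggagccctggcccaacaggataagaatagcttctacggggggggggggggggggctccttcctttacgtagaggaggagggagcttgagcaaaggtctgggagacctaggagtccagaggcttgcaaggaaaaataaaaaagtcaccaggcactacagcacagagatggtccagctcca
Col6a3: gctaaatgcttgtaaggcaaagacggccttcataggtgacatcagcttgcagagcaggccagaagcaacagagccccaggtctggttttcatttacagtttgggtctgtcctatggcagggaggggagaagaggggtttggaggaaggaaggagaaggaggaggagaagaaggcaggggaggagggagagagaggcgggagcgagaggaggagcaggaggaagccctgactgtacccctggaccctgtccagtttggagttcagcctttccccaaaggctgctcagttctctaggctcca

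Array medians lay between 347.3 and 371.2, and arrays of 1 group correlated at 0.9929 to 0.9946 (Pearson, log2 values over all genes, which are not independent replicates). The fibroblast label was checked against 9 markers, all of which were detected. The brightest, Vim, had group means of 32257 to 37793. Lum was far dimmer, at 122 to 253 in inguinal and 1007 to 2396 in epididymal cells. In inguinal GFP+ cells 4 of the 9 were higher and 1 lower, where 12.6% of all genes were called. In epididymal GFP+ cells 3 were higher and 4 lower, where 41.9% were called. Epithelial markers (5 of 6), endothelial markers (7 of 9) and adipocyte markers (4 of 6, among them Adipoq and Lep) were mostly weakly detected, that is in the lowest 30% of gene means, below an intensity of 77.7. Both detected adipocyte markers were higher in GFP+ cells of either depot. Fabp4, a fatty acid carrier, averaged 4913 in inguinal GFP+ and 1372 in GFP- cells, and 6224 and 300.1 in epididymal ones. Pparg, a regulator of fat cell formation, averaged 838 and 335, then 214 and 35.6 (each of the 4 adjusted p-values at most 1.36e-05). The sum over the 6 adipocyte markers was 4894 to 6679.5 in inguinal GFP+ and 1656 to 1831 in inguinal GFP- cells. In epididymal cells it was 6269 to 6769.5 for GFP+ and 437 to 483 for GFP-. Fabp4 made up most of each sum. Below the limit of weak detection were 5 of the 6 markers in epididymal GFP- cells and 4 in each other group. The part of these markers in the GFP contrasts below was not tested. Macrophage, mural and mesothelial markers are given beside the results they moved with. The number of arrays limits the precision. In cultures measured in bulk, fewer cells of a type and less RNA per cell cannot be told apart. Values are probe set intensities, and fold changes compare groups for 1 gene; a signal set against those of other genes shows brightness on the array and not RNA amount. A fold change is a difference of means of log2(intensity + 16), given ± SE, and understates the change of dim genes. Adjusted p-values are from limma over all 12393 genes, and a gene was called where its adjusted p was under 0.05.

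Of the 36 collagens 22 were detected and 14 weakly detected. In inguinal cells 15 of the 36 differed between GFP+ and GFP-, 4 higher and 11 lower in GFP+, where 12.6% of all genes were called (5.26% higher and 7.29% lower). In epididymal cells 20 differed, 10 higher and 10 lower, where 41.9% of all genes were called (21.5% higher and 20.3% lower). Changes of at least 2-fold were seen for 2 collagens in inguinal cells, Col15a1 and Col18a1, where 1.36% of all genes moved that far. There were 9 of them in epididymal cells, the weakly detected Col9a2 among them, where 6.79% of all genes did. The counts of calls include weakly detected genes too, such as Col10a1 among those lower in inguinal GFP+ cells. The median change of all 36, weakly detected genes included, was -0.16 in inguinal and -0.093 in epididymal cells, against -0.011 and 0.011 over all genes. The GFP contrast itself differed between the depots for 16 collagens (interaction term, inguinal minus epididymal), where 34.8% of all genes were called. The difference was positive for 5 (16.1% of all genes) and negative for 11 (18.7% of all genes), and at least 2-fold for 8, where 7.96% of all genes were. With each array centred on its median the split was 8 positive and 9 negative.

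**Figure D1:**
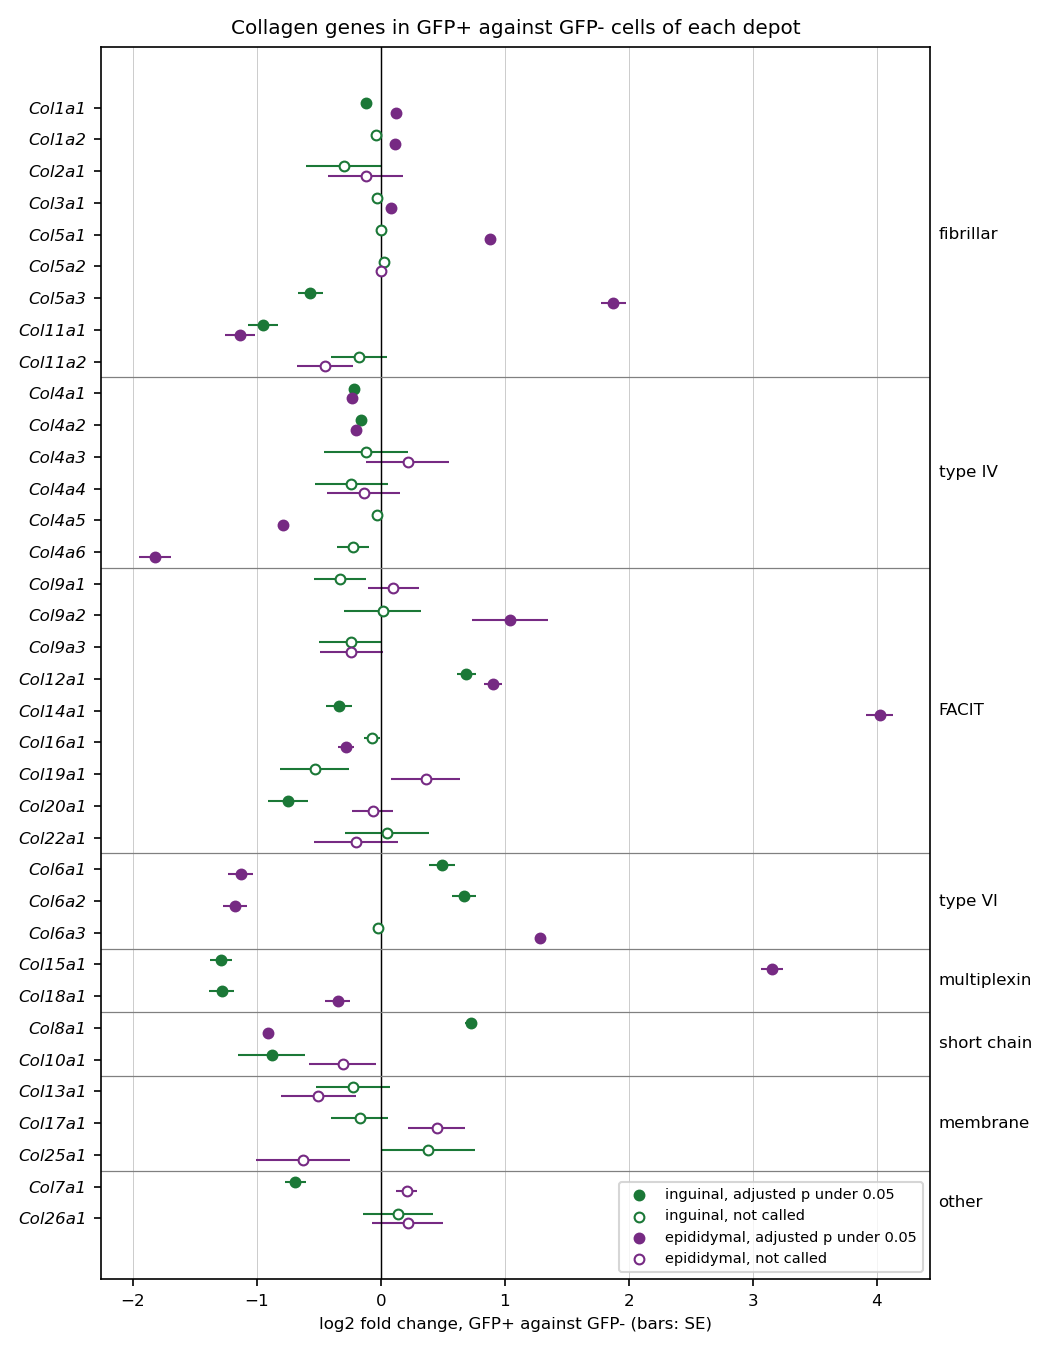
Log2 fold change of GFP+ against GFP- cells (x axis) for the 36 collagen genes (y axis, grouped by class), with inguinal cells in green and epididymal cells in purple, filled where the adjusted p was under 0.05 and with bars for the SE. Most genes lie within 1 of 0 in inguinal cells, while Col14a1 (4.02) and Col15a1 (3.16) stand far to the right in epididymal cells.

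Of 9 fibrillar collagens 0 were higher and 3 lower in inguinal GFP+ cells (median -0.12), and 5 were higher and 1 lower in epididymal GFP+ cells (median 0.082). Col2a1 and Col11a2 were weakly detected. Over all genes 12.6% were called in inguinal cells (5.26% higher, 7.29% lower) and 41.9% in epididymal cells (21.5% higher, 20.3% lower). The counts of each class that follow are to be read beside the same shares. The genes of the abundant fibrils moved little. Col1a1 and Col1a2, the chains of type I collagen, changed by -0.12 ± 0.024 (adjusted p = 0.00417) and -0.034 ± 0.020 (adjusted p = 0.333) in inguinal cells, and by 0.13 ± 0.024 and 0.12 ± 0.020 in epididymal cells (adjusted p = 4.29e-04 and 1.63e-04). Col3a1, the chain of type III collagen, did not pass the test in inguinal cells (-0.032 ± 0.029, adjusted p = 0.572) and was 0.082 ± 0.029 in epididymal cells (adjusted p = 0.0316). These small values depended on the probe set. The other probe set of Col1a2 was lower in epididymal GFP+ cells (-0.12 ± 0.024, adjusted p = 8.02e-04), and that of Col1a1 did not pass in inguinal cells (-0.016 ± 0.031, adjusted p = 0.835). For Col3a1 the other probe set gave -0.27 ± 0.075 in inguinal and 0.37 ± 0.075 in epididymal cells (adjusted p = 0.0291 and 8.92e-04), and the epididymal call at the brighter probe set was lost without epididymal GFP+ replicate 2 or 3 or GFP- replicate 1 or 3 (adjusted p = 0.0508 to 0.136).

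The signals of Col1a1, Col1a2, Col3a1, Col5a2 and Col4a1 were among the 92 highest of the table (0.742% of genes), whose largest value was 46213. Over those 92 genes the median absolute change was 0.026 in inguinal and 0.047 in epididymal cells, against 0.10 and 0.20 over all genes, and 7 and 42 of them were called. Whether signals this high follow RNA amount less closely was not tested.

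The minor fibrillar collagens join the main fibrils and are known to limit their width. At the chosen probe sets Col5a3 and Col11a1 moved further in both depots, Col5a1 in epididymal cells only, and Col5a2 in neither. Col5a1 encodes the chain found in nearly all type V collagen. Its intensity was 23203, 21635 and 23318 on the inguinal GFP+ arrays and 22826, 22989 and 22355 on the inguinal GFP- arrays. On the epididymal arrays it was 18665, 18013 and 18257 for GFP+ cells and 10295, 9762 and 9802 for GFP- cells. The inguinal groups overlapped, whereas the 3 epididymal GFP- arrays were the lowest of all 12. The change was 0.88 ± 0.030 in epididymal cells (adjusted p = 8.40e-13) and -0.0010 ± 0.030 in inguinal cells (adjusted p = 0.990), with a difference between depots of -0.88 ± 0.043 (adjusted p = 1.35e-10). A second probe set of Col5a1 agreed in epididymal cells (0.91 ± 0.037) but was called lower in inguinal GFP+ cells (-0.20 ± 0.037, adjusted p = 0.00192). Over all alternatives run, its other probe sets among them, the epididymal change ranged from 0.85 to 1.36. The difference between depots ranged from -1.56 to -0.82.

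Col5a3, a chain of a rarer form of type V collagen, went opposite ways in the depots. It read 1113, 1062 and 1180.5 on the inguinal GFP+ arrays and 1593, 1831 and 1581 on the inguinal GFP- arrays. The epididymal values were 484, 626 and 515 in GFP+ and 154, 119 and 135 in GFP- cells. All 4 groups were separate from each other, with inguinal GFP- highest and epididymal GFP- lowest. The change was -0.57 ± 0.10 in inguinal (adjusted p = 0.00106) and 1.88 ± 0.10 in epididymal cells (adjusted p = 2.24e-10), a difference of -2.45 ± 0.14 (adjusted p = 1.22e-09). Averaged with its second, weakly detected probe set, the inguinal change no longer passed (-0.064, adjusted p = 0.843). Col5a2, which supplies the remaining chain of the common type V helix, did not pass in either depot (0.028 ± 0.020, adjusted p = 0.458 in inguinal cells; epididymal adjusted p = 0.986), although its other probe set was called lower in both (-0.17 ± 0.021 and -0.23 ± 0.021, adjusted p = 3.11e-05 and 1.77e-07). The log2 ratio of the Col5a1 to the Col5a2 signal, relative to its mean over the arrays, was 0.33 ± 0.047 and 0.36 ± 0.018 in inguinal GFP+ and GFP- cells, 0.10 ± 0.039 in epididymal GFP+ and -0.78 ± 0.048 in epididymal GFP- cells (mean ± SD, n = 3).

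Col11a1, a minor fibrillar chain best known from cartilage, was lower in GFP+ cells of both depots. It read 2310, 2226 and 1511 on the inguinal GFP+ arrays and 3562, 3658 and 4360.1 on the inguinal GFP- arrays. Epididymal values were 3816, 3429 and 3749 in GFP+ and 8435, 8411 and 7331 in GFP- cells. Neither pair of groups overlapped, and epididymal GFP- arrays were the highest. The change was -0.95 ± 0.12 in inguinal (adjusted p = 4.37e-05) and -1.13 ± 0.12 in epididymal cells (adjusted p = 9.57e-07). The difference between depots did not pass (0.18 ± 0.17, adjusted p = 0.477), but it did without inguinal GFP+ replicate 3, the lowest array (0.37, adjusted p = 0.0107), and with the second probe set (0.71 ± 0.065, adjusted p = 3.30e-07). Of 7 cartilage and bone markers 5, among them Acan, were weakly detected. In the inguinal test 0 of the 7 passed and in the epididymal test 1, where 12.6% and 41.9% of all genes did.

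Among the 6 type IV collagens, those of the basement membrane, 0 were higher in GFP+ cells of either depot. In inguinal cells 2 were lower (median -0.19), in epididymal cells 4 (median -0.22), and Col4a3 and Col4a4, known from kidney, were weakly detected. The facing pair Col4a1 and Col4a2, which form the common type IV helix, kept close together at the chosen probe sets. Col4a1 had means of 22507 ± 985 and 26080 ± 662 in inguinal GFP+ and GFP- cells and 22929 ± 275 and 26947 ± 590.5 in epididymal ones (SD, n = 3). For Col4a2 they were 17083 ± 647 and 19053 ± 328, then 17263 ± 403 and 19815 ± 297. Within each depot the GFP+ and GFP- arrays did not overlap for either gene. Col4a1 changed by -0.21 ± 0.030 in inguinal and -0.23 ± 0.030 in epididymal cells (adjusted p = 1.09e-04 and 7.47e-06), and Col4a2 by -0.16 ± 0.028 and -0.20 ± 0.028 (adjusted p = 0.00107 and 2.22e-05). The log2 ratio of the 2 signals, relative to its mean over the arrays, stayed between -0.028 ± 0.059 and 0.027 ± 0.021 (mean ± SD, n = 3) in the 4 groups. Over all alternatives run, the other probe set of Col4a1 among them, the epididymal Col4a1 change ranged from -0.35 to -0.22. That of Col4a2 ranged from -0.23 to -0.18. The interaction did not pass for either (0.020 ± 0.042, adjusted p = 0.781 for Col4a1; 0.041 ± 0.040, adjusted p = 0.491 for Col4a2), although it did for the other probe set of Col4a1 (0.14 ± 0.044, adjusted p = 0.0204).

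Col4a5 and Col4a6, whose chains form a second type IV network together, were lower in GFP+ cells of the epididymal depot, and for both the difference between depots passed. Col4a5 read 5635, 5652 and 5193 on the inguinal GFP+ arrays and 5596, 5578 and 5651 on the inguinal GFP- arrays. It read 6754, 7121 and 6762 on the epididymal GFP+ arrays and 11604, 12166 and 11832 on the GFP- arrays. The inguinal groups overlapped, and the epididymal GFP- arrays stood above all others. The change was -0.79 ± 0.034 in epididymal cells (adjusted p = 1.60e-11) and -0.031 ± 0.034 in inguinal cells (adjusted p = 0.663), a difference of 0.75 ± 0.048 (adjusted p = 3.56e-09).

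Col4a6 was dim in inguinal cells, at 127, 107 and 148 in GFP+ and 150.04, 151 and 148 in GFP-. It reached 429, 315 and 449 on the epididymal GFP+ arrays and 1558, 1347 and 1393 on the GFP- arrays. Every epididymal array was above every inguinal one, and GFP- arrays were above GFP+ arrays in both depots. The change was -1.82 ± 0.13 in epididymal cells (adjusted p = 6.88e-09), did not pass in inguinal cells (-0.22 ± 0.13, adjusted p = 0.333), and differed between depots by 1.60 ± 0.18 (adjusted p = 3.27e-06). The second probe set gave a larger epididymal change (-2.68 ± 0.18). Beside these changes, 9 of 10 mesothelial markers were lower in epididymal GFP+ cells and 0 higher. The mesothelium is the epithelium that covers the epididymal fat pad, and its markers include Upk3b (9459 in epididymal GFP- and 599.6 in GFP+ cells) and Msln (2331 and 181). Their summed intensity was 40365 to 43108 on the epididymal GFP- arrays and 7439 to 7709 on the epididymal GFP+ arrays. On the inguinal GFP+ and GFP- arrays it was 1965 to 2316 and 1650.3 to 1801. The keratin Krt19 (1292 and 1186) made up most of these inguinal sums. In inguinal GFP+ and GFP- cells 8 and 7 of the 10 markers were below the limit of weak detection, in epididymal ones 1 and 0. Endothelial markers were split, with 2 of 9 higher and 2 lower in epididymal GFP+ cells. Kdr, a receptor of endothelial cells, and Esam were high in epididymal GFP- cells (4469 and 825, against 552 and 124 in GFP+). Pecam1 and Cdh5 were weakly detected over all arrays, and Cdh5 ran the other way (166 in epididymal GFP+ and 33.4 in GFP- cells). In epididymal GFP+ cells 8 of 15 macrophage and leukocyte markers were lower and 1 higher, and of 8 mural markers 4 were higher and 3 lower. All these marker counts stand beside 41.9% of all genes called in epididymal cells (21.5% higher, 20.3% lower). The part of these markers in any of the epididymal results was not tested.

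The FACIT collagens held the largest GFP contrast of a collagen at the chosen probe sets, that of Col14a1 in epididymal cells. Of 9 members, 5 of them weakly detected, 1 was higher and 2 lower in inguinal GFP+ cells (median -0.24), and 3 were higher and 1 lower in epididymal GFP+ cells (median 0.10). The epididymal share, 44.4% of the class, was close to the 41.9% of all genes called there. Col14a1 encodes collagen XIV, which binds the fibril surface and the proteoglycan decorin. It read 888, 671 and 848 on the inguinal GFP+ arrays and 914, 1033 and 1098 on the inguinal GFP- arrays. Epididymal values were 1507, 1630.3 and 1505 in GFP+ but 72.0, 92.5 and 77.1 in GFP- cells, the latter close to the limit of weak detection. Epididymal GFP+ arrays were thus the highest and GFP- arrays the lowest, with the inguinal arrays between. The change was 4.02 ± 0.11 in epididymal cells (adjusted p = 3.43e-14), and the difference between depots was -4.36 ± 0.15 (adjusted p = 1.96e-12); the second probe set gave 2.34 ± 0.12 and -2.60 ± 0.17. In inguinal cells the change was -0.34 ± 0.11 and only just passed (adjusted p = 0.0465). That call was lost without inguinal GFP+ replicate 2 (-0.22) or 3, inguinal GFP- replicate 2 or 3, any epididymal GFP+ replicate or epididymal GFP- replicate 3 (adjusted p = 0.0531 to 0.193), and with the second probe set (-0.26 ± 0.12, adjusted p = 0.213).

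Col12a1, a FACIT chain of dense connective tissue, was higher in GFP+ cells of both depots. Its group means were 2187 ± 279.8 and 1345 ± 97.6 in inguinal GFP+ and GFP- cells and 1523 ± 33.4 and 805 ± 19.6 in epididymal ones (SD, n = 3). The change was 0.69 ± 0.075 and 0.91 ± 0.075 (adjusted p = 8.77e-06 and 4.73e-08), and the difference between depots did not pass (-0.22 ± 0.11, adjusted p = 0.136). Col16a1, another FACIT chain, was lower in epididymal GFP+ cells (-0.28 ± 0.064, adjusted p = 0.00222; inguinal -0.073 ± 0.064, adjusted p = 0.566), and the difference did not pass (0.20 ± 0.091, adjusted p = 0.101) except without epididymal GFP+ replicate 2 (0.30, adjusted p = 0.0041) and with median centring (0.27, adjusted p = 0.0288). Col20a1 was dim, at 60.7 in inguinal GFP+ cells and 109 to 113 in the other groups, and was lower in inguinal GFP+ cells (-0.75 ± 0.16, adjusted p = 0.00549). Averaged with its 2 weakly detected other probe sets it no longer passed (-0.31, adjusted p = 0.386).

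The chains of type VI collagen parted. Of its 3 genes 2 were higher in inguinal GFP+ cells (median 0.49), whereas in epididymal GFP+ cells 1 was higher and 2 were lower (median -1.13). Col6a1 read 9019.5, 6906 and 10219 on the inguinal GFP+ arrays and 5696, 6164 and 6484 on the inguinal GFP- arrays. It read 2501, 2856 and 2503 on the epididymal GFP+ arrays and 5406, 6098 and 5731 on the GFP- arrays. Epididymal GFP+ arrays were the lowest, inguinal GFP+ arrays the highest, and the GFP- arrays of both depots overlapped. The change was 0.49 ± 0.10 in inguinal cells (adjusted p = 0.00348) and -1.13 ± 0.10 in epididymal cells (adjusted p = 1.30e-07), a difference of 1.62 ± 0.14 (adjusted p = 1.82e-07).

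Its neighbour Col6a2 followed the same order. Values were 11151, 8081 and 11462 on the inguinal GFP+ arrays and 5812, 6530.1 and 6704 on the inguinal GFP- arrays. They were 2576, 2632 and 2762 on the epididymal GFP+ arrays and 5797, 6480.5 and 5785 on the GFP- arrays. GFP+ arrays were above GFP- arrays in inguinal cells and below them in epididymal cells, without overlap in either depot. Col6a2 changed by 0.67 ± 0.10 in inguinal (adjusted p = 1.57e-04) and by -1.17 ± 0.10 in epididymal cells (adjusted p = 4.74e-08), a difference of 1.85 ± 0.14 (adjusted p = 2.26e-08), and a second probe set gave 0.67 ± 0.10 and -1.09 ± 0.10. Inguinal GFP+ replicate 2 was the lowest array of its group for Col6a1 and Col6a2, and both inguinal calls were kept without it.

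Col6a3, the large chain of the same helix and the source of the fragment endotrophin, ran the other way in epididymal cells. It read 15570, 14121 and 15116 on the inguinal GFP+ arrays and 14695, 15430 and 15371 on the inguinal GFP- arrays. It read 12433, 11967 and 12064 on the epididymal GFP+ arrays and 5054, 5204 and 4732 on the GFP- arrays. The inguinal groups overlapped, and the epididymal GFP- arrays, level with inguinal GFP- arrays for Col6a1 and Col6a2, were the lowest for Col6a3. The change was 1.28 ± 0.039 in epididymal cells (adjusted p = 1.80e-13) and -0.023 ± 0.039 in inguinal cells (adjusted p = 0.795), a difference of -1.30 ± 0.055 (adjusted p = 2.37e-11). The log2 ratio of the Col6a1 to the Col6a3 signal, relative to its mean over the arrays, was 0.23 ± 0.23 in inguinal GFP+, -0.28 ± 0.062 in inguinal GFP-, -1.18 ± 0.13 in epididymal GFP+ and 1.23 ± 0.092 in epididymal GFP- cells. The ratio of Col6a1 to Col6a2 was -0.14 ± 0.070, 0.040 ± 0.027, 0.072 ± 0.13 and 0.027 ± 0.047 in the same groups (mean ± SD, n = 3). Ratios between probe sets show unequal change and not how many chains were made.

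**Figure D2:**
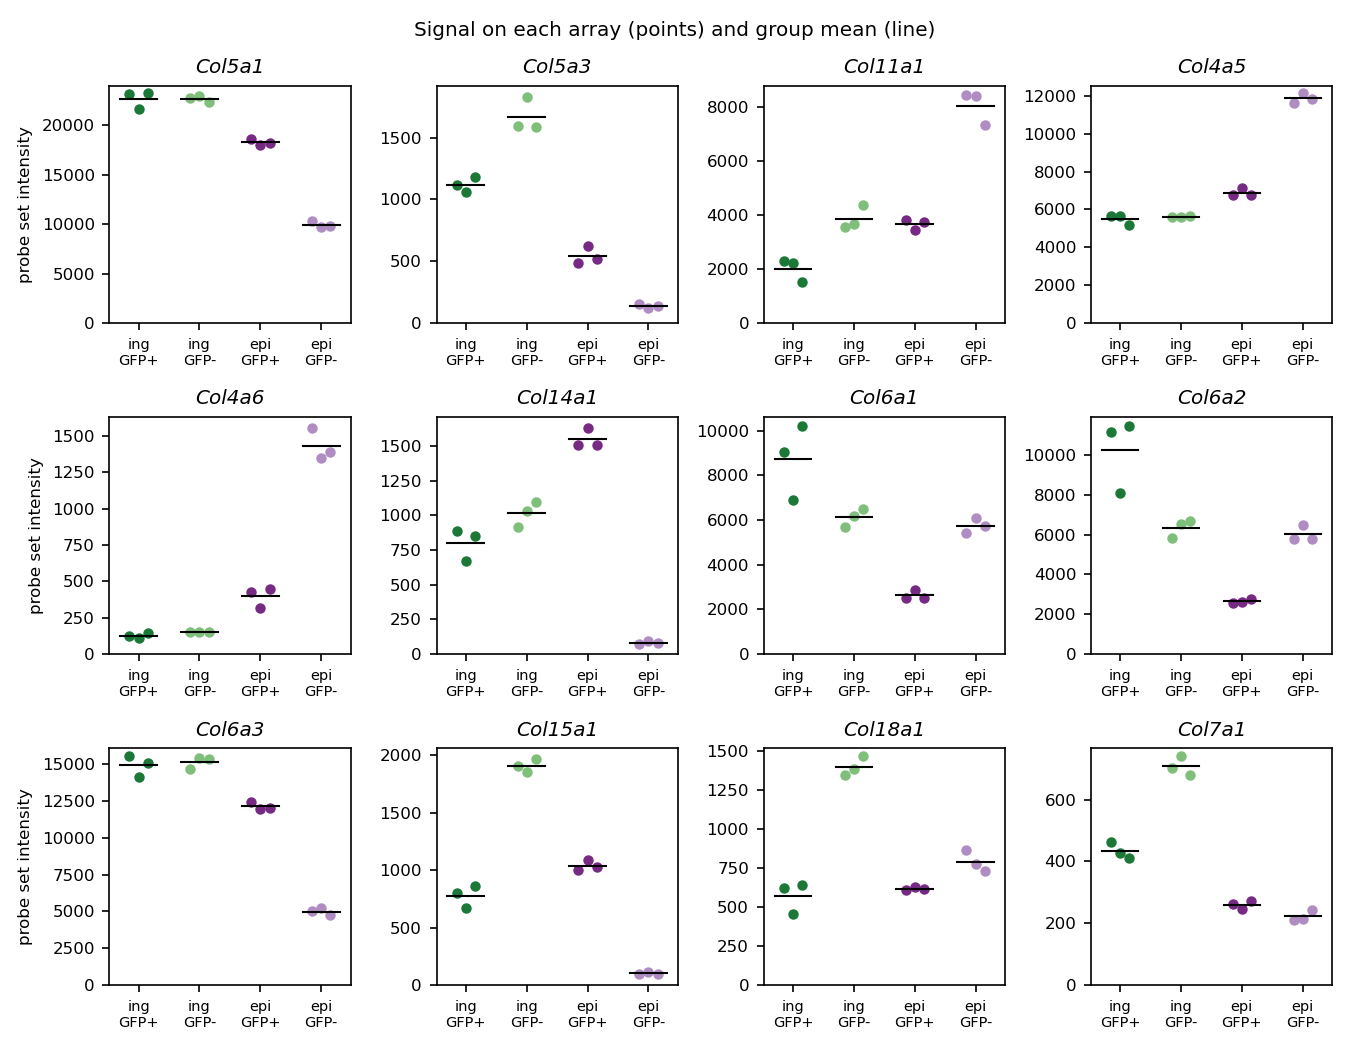
Probe set intensity (y axis, linear from 0) on each of the 3 arrays of each group (points; ing, inguinal; epi, epididymal) with the group mean (line), for the 12 detected collagens called with a change of at least 2-fold in a pairwise comparison. For Col6a1 and Col6a2 the epididymal GFP+ arrays are the lowest, at 2619.9 and 2656 on average, whereas for Col6a3, Col14a1 and Col15a1 the epididymal GFP- arrays are, at 4996, 80.5 and 102.

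Both multiplexins were lower in inguinal GFP+ cells (median -1.28), and they parted in epididymal cells, 1 higher and 1 lower. Col15a1 encodes collagen XV, which links basement membranes to the matrix around them. It read 798, 666 and 864 on the inguinal GFP+ arrays and 1909.8, 1850.1 and 1969 on the inguinal GFP- arrays. Epididymal values were 999.8, 1084 and 1025 in GFP+ and 93.0, 115 and 99.1 in GFP- cells. No 2 groups overlapped, with inguinal GFP- highest and epididymal GFP- lowest, the same order of extremes as for Col5a3. The change was -1.29 ± 0.089 in inguinal (adjusted p = 6.98e-08) and 3.16 ± 0.089 in epididymal cells (adjusted p = 8.37e-14), and the difference of -4.45 ± 0.13 (adjusted p = 2.26e-13) was the largest among the collagens.

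Col18a1 encodes collagen XVIII, a heparan sulfate proteoglycan of basement membranes and the source of endostatin. It read 619.7, 456 and 645 on the inguinal GFP+ arrays and 1348, 1385 and 1471 on the inguinal GFP- arrays. It read 611, 628 and 614 on the epididymal GFP+ arrays and 864, 779 and 733 on the GFP- arrays. The inguinal GFP- arrays stood above all others, and the GFP+ arrays of both depots overlapped. The change was -1.28 ± 0.10 in inguinal cells (adjusted p = 2.61e-07). In epididymal cells it was -0.35 ± 0.10 (adjusted p = 0.0103), a call lost without epididymal GFP- replicate 1, the highest array of its group (-0.28, adjusted p = 0.0564). The depots differed by -0.93 ± 0.14 (adjusted p = 7.01e-05).

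Col7a1, whose product anchors basement membranes to the fibrils beneath, was lower in inguinal GFP+ cells. It read 462, 426 and 411 on the inguinal GFP+ arrays and 702, 740.2 and 679 on the inguinal GFP- arrays. Epididymal values were 261, 247 and 270.4 in GFP+ and 209.8, 214 and 243 in GFP- cells. The inguinal groups were far apart, while the epididymal groups lay next to each other with GFP+ arrays just above GFP- arrays. The change was -0.69 ± 0.085 in inguinal cells (adjusted p = 3.47e-05) and 0.21 ± 0.085 in epididymal cells (adjusted p = 0.0604), which differed by -0.90 ± 0.12 (adjusted p = 1.95e-05). The epididymal value passed without epididymal GFP- replicate 3 (0.27, adjusted p = 0.0251) and with weakly detected genes left out (adjusted p = 0.0344). Col8a1, a short-chain collagen known from vessel walls and the cornea, was higher in inguinal GFP+ cells (10029 against 6051; 0.73 ± 0.045, adjusted p = 2.24e-08). It was lower in epididymal GFP+ cells (6017 against 11293; -0.91 ± 0.045, adjusted p = 8.56e-11), and the depots differed by 1.63 ± 0.064 (adjusted p = 1.05e-11).

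Beside these inguinal changes, 12 of 15 macrophage and leukocyte markers were lower in inguinal GFP+ cells and 0 higher. This count and that of the mural markers below stand beside 12.6% of all genes called in inguinal cells (5.26% higher, 7.29% lower). The summed intensity of the macrophage and leukocyte markers was 2358 to 2599 on the inguinal GFP+ arrays and 11719 to 13781 on the inguinal GFP- arrays. On the epididymal arrays it was 3112 to 3236 for GFP+ and 3516 to 3976 for GFP- cells. In inguinal GFP+ cells the defining markers C1qa (12.3, against 808 in GFP-) and Ptprc (9.31 against 251) were below the median of 31 olfactory receptor genes taken as unexpressed (19.9 to 22.3 in the 4 groups). This did not hold for the whole list. Only 9 of the 15 were below the limit of weak detection in inguinal GFP+ cells, and Csf1r (1125, against 1910 in GFP-) and Cd14 (337 against 691) were well above it. Of 8 mural markers, those of smooth muscle and pericytes, 5 were lower in inguinal GFP+ cells and 1 higher. Their sums were 57698 to 60409 in inguinal GFP+, 64990 to 65891 in inguinal GFP-, 79748 to 81561 in epididymal GFP+ and 75231 to 76513 in epididymal GFP- cells. Acta2 (37676 in inguinal GFP+ and 37013 in GFP- cells) made up most of the inguinal sums. Dimmer markers among the lower ones moved further, such as Myh11 (2647 against 5286) and Mcam (1019 against 2613). Only 1 of the 8 mural markers was below the limit of weak detection in each group. The part of both lists in the lower Col15a1, Col18a1, Col5a3, Col7a1 and type IV signals of inguinal GFP+ cells was not tested.

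The 14 weakly detected collagens were Col2a1, Col11a2, Col4a3, Col4a4, Col9a1, Col9a2, Col9a3, Col19a1, Col22a1, Col10a1, Col13a1, Col17a1, Col25a1 and Col26a1. They are known mainly from cartilage (types II, IX and X), kidney and epithelia, nerve and muscle. Their group means lay between 1 and 77.9, where the median of the olfactory receptors was 19.9 to 22.3. Only 5 of their 70 tests in the 5 comparisons passed. Col10a1 was lower in inguinal GFP+ cells (2.92 against 19.8; -0.88 ± 0.27, adjusted p = 0.0424) and Col9a2 higher in epididymal GFP+ cells (37.8 against 9.23; 1.04 ± 0.31, adjusted p = 0.0122). In GFP+ cells Col11a2 was higher (0.70) and Col9a1 lower (-0.56) in the inguinal depot, and in GFP- cells Col17a1 was higher there (0.92; adjusted p = 0.0156, 0.0353 and 0.00296).

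The depots were then compared within each sorted population; these comparisons use the same arrays as the GFP contrasts and are no independent support for them. In GFP+ cells 20 of 36 collagens differed, 12 higher and 8 lower in inguinal cells, where 50.8% of all genes were called (23.6% higher and 27.2% lower). In GFP- cells 18 differed, 14 higher and 4 lower, where 53.7% were called (27.4% higher and 26.3% lower). Changes of at least 2-fold numbered 4 in GFP+ cells, where 5.77% of all genes moved that far, and 9 in GFP- cells, where 10.4% did. The median collagen difference was -0.013 in GFP+ and 0.11 in GFP- cells, against -0.041 and -0.018 over all genes. Markers of other cells differed between the depots as well. In GFP- cells 12 of 15 macrophage and leukocyte markers were higher and 1 lower in inguinal cells, while 9 of 10 mesothelial markers were lower and 1 higher. In GFP+ cells 7 of the 15 and 8 of the 10 were lower, with 0 and 2 higher, and 6 of 8 mural markers were lower and 1 higher. Their sums are given above, and their part in the depot differences was not tested.

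In GFP+ cells the 4 collagens with a 2-fold difference were Col6a1 (1.71 ± 0.10), Col6a2 (1.92 ± 0.10) and Col5a3 (1.03 ± 0.10), all higher in inguinal cells, and Col4a6 (-1.52 ± 0.13), which was lower. Their adjusted p-values were 1.29e-09, 1.86e-10, 4.24e-07 and 8.20e-08. Col6a3, the third chain of the type VI helix, differed by 0.30 ± 0.039 (adjusted p = 9.71e-06). Col14a1 (-0.94 ± 0.11), Col11a1 (-0.88 ± 0.12), Col15a1 (-0.42 ± 0.089) and Col4a5 (-0.32 ± 0.034) were lower in inguinal GFP+ cells, and Col7a1 (0.70 ± 0.085), Col8a1 (0.73 ± 0.045), Col16a1 (0.60 ± 0.064) and Col12a1 (0.51 ± 0.075) higher (adjusted p from 1.93e-09 to 0.00105). Col18a1 did not pass (-0.12 ± 0.10, adjusted p = 0.350).

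In GFP- cells the depots differed most for Col15a1 (4.03 ± 0.089), Col5a3 (3.48 ± 0.10) and Col14a1 (3.42 ± 0.11), which were higher in inguinal cells, and Col4a6 (-3.12 ± 0.13), which was lower (adjusted p = 2.36e-15, 6.00e-14, 1.31e-13 and 5.09e-12). Of the type VI chains only Col6a3 passed (1.60 ± 0.039, adjusted p = 6.32e-15), while Col6a1 (0.089 ± 0.10, adjusted p = 0.498) and Col6a2 (0.076 ± 0.10, adjusted p = 0.552) did not. Col5a1 (1.19 ± 0.030), Col7a1 (1.60 ± 0.085) and Col18a1 (0.81 ± 0.10) were higher in inguinal GFP- cells, and Col4a5 (-1.08 ± 0.034), Col11a1 (-1.06 ± 0.12) and Col8a1 (-0.90 ± 0.045) lower (adjusted p from 1.16e-14 to 3.57e-06). Col4a6, Col4a5 and Col11a1 were thus lower in inguinal cells of both populations, and Col5a1, Col5a3, Col6a3, Col7a1, Col12a1 and Col16a1 higher in both, the Col5a1 difference in GFP+ cells (0.31 ± 0.030) being smaller and not called with its next probe set (0.072 ± 0.037, adjusted p = 0.125). Col1a1, Col1a2, Col3a1 and Col5a2 differed by -0.13 to 0.24 between the depots in the 2 populations. Col3a1 did not pass in GFP+ cells (-0.010, adjusted p = 0.803), but its other probe set was lower in inguinal cells (-0.34 ± 0.075, adjusted p = 0.00147), as was that of Col5a2 in both populations (-0.20 and -0.26). Col4a1 and Col4a2 passed in neither (-0.028 and -0.015 in GFP+, -0.047 and -0.057 in GFP- cells; adjusted p = 0.476, 0.683, 0.202 and 0.104), but the other probe set of Col4a1 was lower in inguinal GFP- cells (-0.22 ± 0.031, adjusted p = 2.37e-05).

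**Figure D3:**
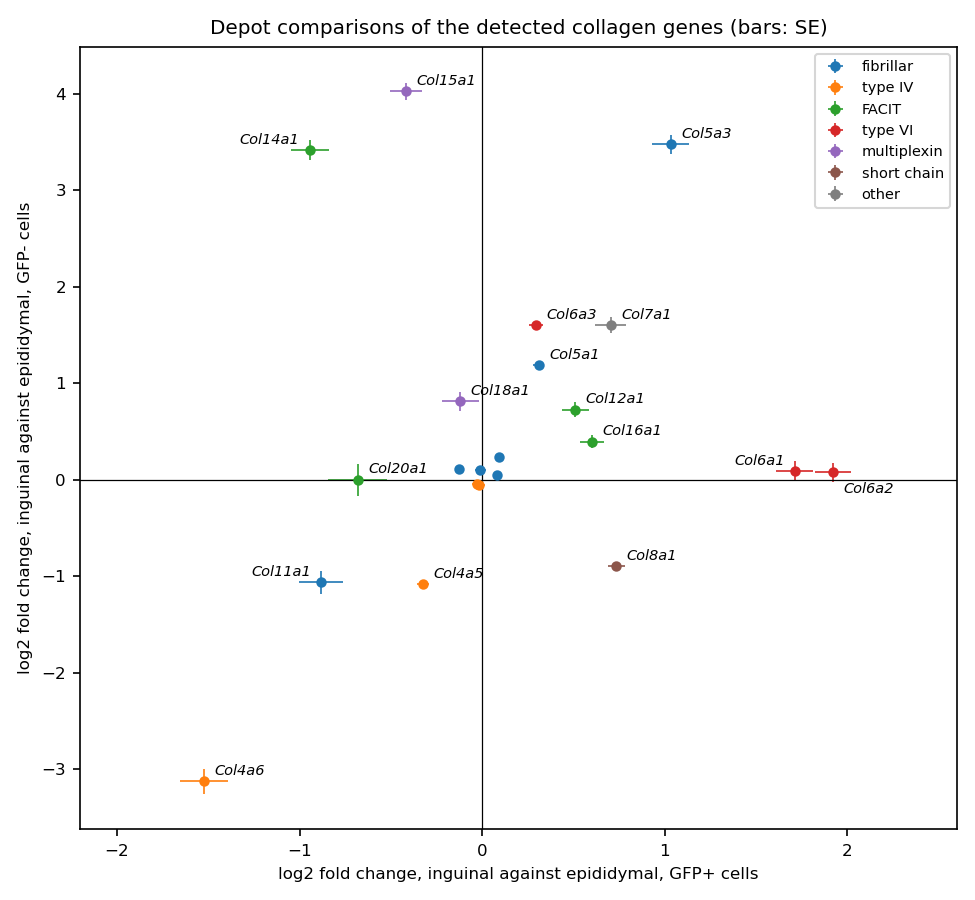
Log2 fold change of inguinal against epididymal cells in GFP+ cells (x axis) and in GFP- cells (y axis) for the 22 detected collagens, coloured by class, with bars for the SE. Col6a1 and Col6a2 lie at the right near 0 on the y axis (0.089 and 0.076), whereas Col14a1 and Col15a1 lie high on the left, at 3.42 and 4.03 on the y axis.

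A collagen chain needs enzymes that hydroxylate and fold it, proteinases that trim the secreted procollagen, enzymes that crosslink it, receptors that bind or take it up, and proteases that cleave it. Of 16 measured genes for folding and modification, 1 was higher and 2 lower in inguinal GFP+ cells (median 0.0086), but 15 were higher and 1 lower in epididymal GFP+ cells (median 0.41). Of all genes 12.6% were called in inguinal cells (5.26% higher, 7.29% lower) and 41.9% in epididymal cells (21.5% higher, 20.3% lower), and the counts of the lists that follow are to be read beside the same shares. In epididymal cells the smallest adjusted p-values belonged to P4ha2, a subunit of prolyl 4-hydroxylase (13449 in GFP+ against 2838 in GFP-; 2.24 ± 0.038), and to the lysyl hydroxylases Plod1 (1.40 ± 0.054) and Plod3 (0.98 ± 0.035), with adjusted p of 1.92e-16, 3.47e-12 and 1.24e-12. Each of these differed from its inguinal change (-2.22, -1.29 and -0.97; interaction adjusted p = 4.61e-14, 1.45e-09 and 2.29e-10). In inguinal cells the lysyl hydroxylase Plod2 was higher (0.51 ± 0.071, adjusted p = 1.15e-04), and the transcription factor Creb3l1, an activator of type I collagen genes, and the prolyl 3-hydroxylase P3h1 were lower (-0.28 ± 0.038 and -0.14 ± 0.039, adjusted p = 1.05e-04 and 0.0297). The P3h1 call was lost without inguinal GFP+ replicate 1 or 3 or inguinal GFP- replicate 2 or 3 (adjusted p = 0.0887 to 0.147).

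Of 7 procollagen proteinases and their enhancers, 0 were higher and 3 lower in inguinal GFP+ cells, and 3 were higher and 1 lower in epididymal GFP+ cells. Pcolce2, an enhancer of procollagen C-proteinase, averaged 148 ± 25.6 on inguinal GFP+ and 646 ± 83.5 on inguinal GFP- arrays (SD, n = 3). Epididymal means were 2296 ± 35.9 for GFP+ and 871 ± 57.2 for GFP- cells. The GFP contrast thus had opposite signs in the depots (-2.02 ± 0.10 and 1.38 ± 0.10, adjusted p = 2.74e-09 and 1.53e-08; difference -3.40 ± 0.15, adjusted p = 3.61e-11). The C-proteinase Bmp1 did likewise at smaller size (-0.25 ± 0.038 and 0.78 ± 0.038; difference -1.03 ± 0.053, adjusted p = 2.56e-10), although its inguinal call was lost with the mean of its probe sets (-0.13, adjusted p = 0.406). The related proteinase Tll1 was lower in inguinal GFP+ cells (-0.76 ± 0.17, adjusted p = 0.00703), and the enhancer Pcolce was higher in epididymal GFP+ cells (0.85 ± 0.028, adjusted p = 4.81e-13).

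All 5 measured crosslinking enzymes were higher in epididymal GFP+ cells, among them the lysyl oxidases Loxl4 (632 against 62.8; 3.05 ± 0.13) and Loxl3 (1.39 ± 0.033) and the transglutaminase Tgm2 (0.51 ± 0.056), with adjusted p of 7.84e-12, 9.09e-15 and 1.42e-06. In inguinal GFP+ cells 1 was higher, Loxl3 (0.12 ± 0.033), and 1 lower, Tgm2 (-0.38 ± 0.056; adjusted p = 0.0188 and 1.68e-04). The small Loxl3 change no longer passed without inguinal GFP+ replicate 1 or any inguinal GFP- replicate (adjusted p = 0.0519 to 0.0774). Of 7 receptors and uptake genes, 3 were higher and 1 lower in epididymal GFP+ cells, where 41.9% of all genes were called. Mrc2, which takes up collagen for degradation, was 6233 in epididymal GFP+ and 1254 in GFP- cells (2.30 ± 0.039, adjusted p = 1.92e-16). The collagen-binding kinase Ddr2, mainly of mesenchymal cells, was higher there (0.94 ± 0.054) and its relative Ddr1, mainly of epithelial cells, lower (-0.63 ± 0.038; adjusted p = 5.04e-10 and 9.52e-10). In inguinal GFP+ cells 2 of the 7 were lower, Ddr1 (-0.22 ± 0.038, adjusted p = 7.49e-04) and Mrc1, a macrophage receptor, at 29.1 against 94.7 (-1.29 ± 0.29, adjusted p = 0.00634).

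Of 8 collagen-cleaving proteases, 1 was higher and 2 lower in inguinal GFP+ cells, and 2 were higher and 1 lower in epididymal GFP+ cells, no larger a share than the 41.9% of all genes called there. Ctsk, the lysosomal cathepsin K, was 3941 in epididymal GFP+ and 723 in GFP- cells (2.42 ± 0.055, adjusted p = 5.68e-15). Fap, a surface protease of activated fibroblasts, was higher in GFP+ cells of both depots (0.83 ± 0.095 and 2.25 ± 0.095, adjusted p = 1.43e-05 and 1.07e-11), and more so in epididymal cells (difference -1.42 ± 0.13, adjusted p = 3.75e-07). The membrane collagenase Mmp14 was lower in both (-0.16 ± 0.028 and -0.31 ± 0.028, adjusted p = 7.49e-04 and 1.29e-07). Mmp13, a weakly detected collagenase, was lower in inguinal GFP+ cells (-0.77 ± 0.23, adjusted p = 0.0340), a call lost without inguinal GFP+ replicate 1 or 2 or any inguinal GFP- replicate (adjusted p = 0.0645 to 0.132). Markers of other cells differed in the same contrasts, with the counts and shares given above. Macrophage and leukocyte markers were mostly lower in GFP+ cells of both depots. Mesothelial markers were mostly lower in epididymal GFP+ cells but mostly not called in inguinal cells. Mural markers were mostly lower in inguinal GFP+ cells and split in epididymal ones. Both detected adipocyte markers were higher in GFP+ cells of either depot. The part of these markers in the results for the genes that act on collagen was not tested.

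**Figure D4:**
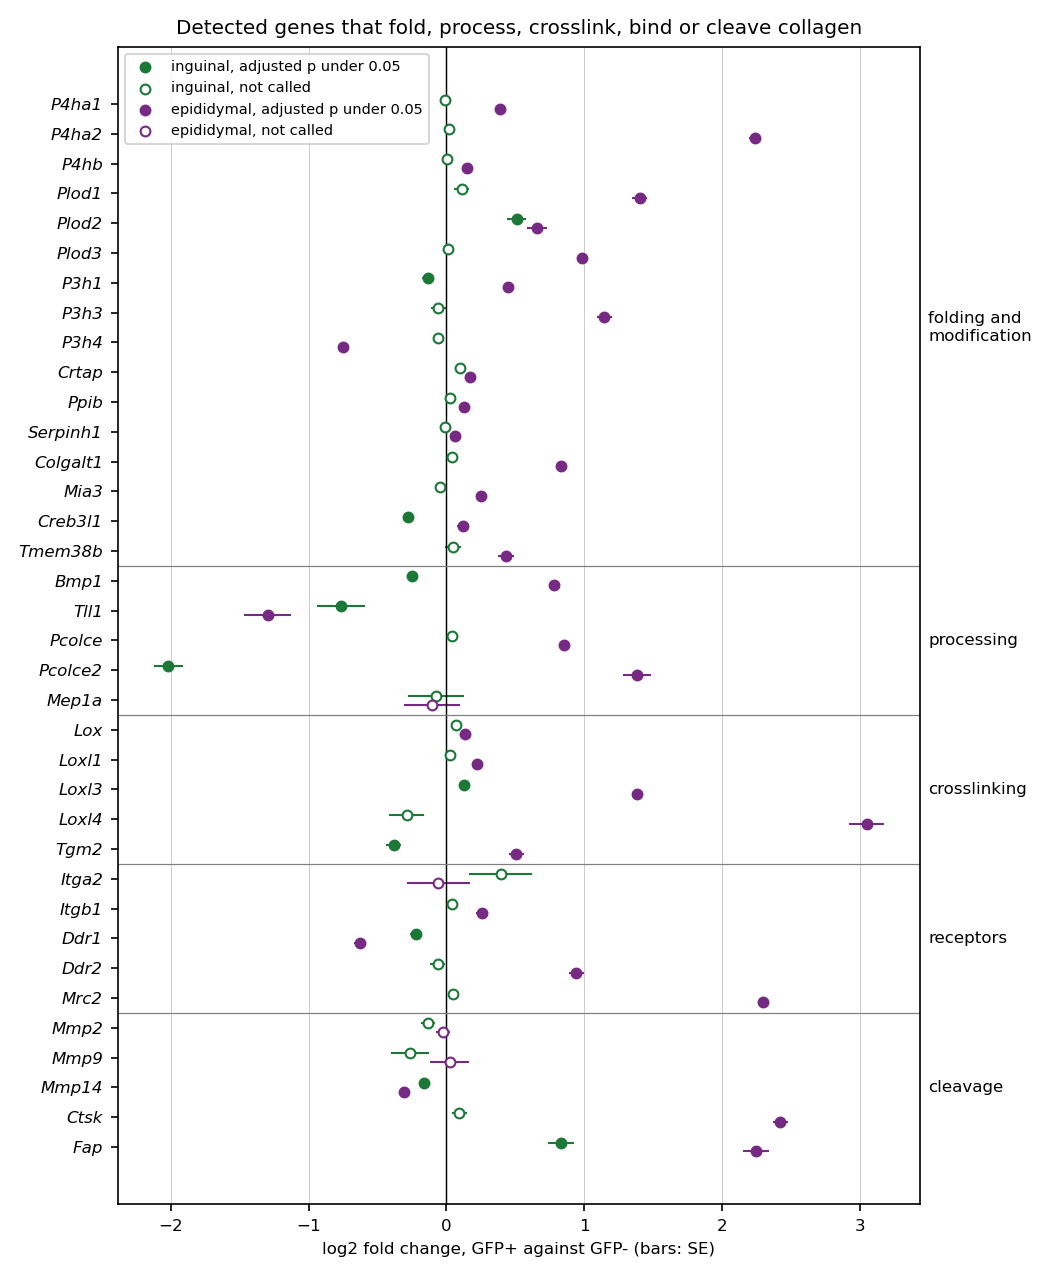
Log2 fold change of GFP+ against GFP- cells (x axis) for the detected genes that fold, process, crosslink, bind or cleave collagen (y axis, grouped by role), with inguinal cells in green and epididymal cells in purple, filled where the adjusted p was under 0.05 and with bars for the SE. In epididymal cells 15 of 16 genes for folding and modification and all 5 crosslinking genes lie to the right of 0, with P4ha2 at 2.24 and Loxl4 at 3.05.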

How the data were processed

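Each of 12 RNA samples was measured on its own Affymetrix array. The authors deposited 1 intensity per probe set and array, on a linear scale; how the signal was computed and scaled is not given in the sources used here. The authors' intensities were used with no further normalization and transformed to log2(intensity + 16), so that the log2 fold change of dim genes is understated.

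Of 22626 probe sets, 20380 had 1 gene symbol, 691 several and 1555 none; only those with 1 were kept. Gene symbols were brought up to date by Entrez identifier in the RefSeq table of GRCm38.p6 (24 had no current match). The probe set with the highest mean stood for its gene. The 36 collagens had 58 probe sets, 1 each for 17 genes and several for 19, and 14 other probe sets of 13 collagens were not weakly detected.

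Groups came from the labels. A linear model (limma 3.58.1, R 4.3.3, with a variance trend in eBayes) was fitted to all 12 arrays and 12393 genes, p-values adjusted over all of them (Benjamini-Hochberg, threshold 0.05), for the GFP contrast of each depot, the interaction of GFP and depot, and the depots within each population. The method was tested on simulated data. The collagens and gene lists were chosen with earlier results of these data known.

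Collagens called with a change of at least 1 on the log2 scale in any of the 4 pairwise comparisons, and detected in their highest group, were described array by array; up to 3 called genes with the smallest adjusted p were named per pathway list and GFP comparison. The fits were repeated with pseudocounts of 1 and 64, with arrays centred on the median or quantile normalized, with the replicate block, without a variance trend, without weakly detected genes, on the compared groups alone, on the mean of all probe sets per gene, with a change of 1.5-fold required, and without each array in turn. The other probe sets of a collagen were added after seeing the data. Promoter windows are from RefSeq, and 27 of the 36 collagens matched one.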

Additional observations from a re-analysis of the deposited data

Results flagged for a closer look

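The change between GFP+ and GFP- cells differed between the depots, by the interaction test in limma, for 16 collagens, where 34.8% of all genes did. Values are the inguinal minus the epididymal change on the log2 scale. Among fibrillar collagens it was -2.45 for Col5a3 and -0.88 for Col5a1, and small for Col1a1 (-0.24), Col1a2 (-0.15) and Col3a1 (-0.11). The type IV genes Col4a6 (1.60) and Col4a5 (0.75) had positive differences. The FACIT genes Col14a1 and Col20a1 gave -4.36 and -0.68. In type VI collagen Col6a2 (1.85) and Col6a1 (1.62) were positive and Col6a3 (-1.30) was negative. Col15a1 gave -4.45, Col18a1 -0.93, Col7a1 -0.90 and Col8a1 1.63. The call for Col1a2 had the opposite sign with its other probe set (0.18). That for Col3a1 was lost with median centring (adjusted p = 0.341) and on leaving out any of 9 single arrays (adjusted p = 0.0504 to 0.107), and that for Col20a1 with quantile normalization (adjusted p = 0.0701) and on leaving out any of 6 (adjusted p = 0.0507 to 0.0838).

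In the same test 13 of 15 macrophage and leukocyte markers were negative and 0 positive, and 9 of 10 mesothelial markers were positive and 0 negative. Of all genes 16.1% were positive and 18.7% negative. The part of these markers in the differences was not tested.

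Of the 43 measured genes that act on collagen, 27 passed this test, where 34.8% of all genes did. The difference was positive for 3 (16.1% of all genes) and negative for 24 (18.7% of all genes). The 17 that follow are those also named for small adjusted p-values in the GFP contrasts. Among genes for folding and modification the difference was -2.22 for P4ha2, -1.29 for Plod1, -0.97 for Plod3, -0.58 for P3h1 and -0.40 for Creb3l1. For processing it was -3.40 for Pcolce2, -1.03 for Bmp1 and -0.82 for Pcolce, and for crosslinking -3.34 for Loxl4, -1.26 for Loxl3 and -0.89 for Tgm2. Among receptors it was -2.25 for Mrc2, -1.0045 for Ddr2 and 0.41 for Ddr1, and among proteases -2.33 for Ctsk, -1.42 for Fap and 0.15 for Mmp14. Groups of 3 arrays were not tested for single outlying arrays.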

How the results depend on the processing

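Of 110 results of the 22 detected collagens, 71 kept direction and side of the threshold under every alternative run, and 78 kept their side of it. With a minimum change of 1.5-fold required, the calls that remained were 9 collagens in inguinal cells (6 lower), 13 in epididymal cells (6 lower) and 11 between depots in GFP+ cells (7 higher, 4 lower). Between depots in GFP- cells 9 higher in inguinal cells remained, and the 4 lower ones were all kept. For the depot difference in the GFP contrast the calls of Col1a1, Col1a2 and Col3a1 were lost. Median centring gave 8 in place of 5 collagens with a positive depot difference. It also moved the split of all genes, higher to lower, from 652 and 904 to 986 and 671 in inguinal cells, from 2000 and 2313 to 2563 and 1843 for the difference and from 2922 and 3370 to 3704 and 2687 between depots in GFP+ cells. Leaving out 1 array gave 13 to 15 calls in inguinal cells (4 higher, 9 to 11 lower), 18 to 20 in epididymal cells (8 to 10 higher, 9 to 10 lower), 14 to 18 for the difference (5 to 6 and 9 to 12), 18 to 22 in GFP+ (11 to 13 and 7 to 9) and 17 to 19 in GFP- cells (13 to 15 and 4).

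Of 84 called results of these genes 6 changed sign in an alternative, those of Col1a1, Col1a2 and Col5a2 given here, and 14 that were not called did too. With the mean of all probe sets Col1a2 gave 0.013 in inguinal cells, -0.0011 in epididymal cells and 0.014 for the difference, Col5a2 gave -0.073, -0.11, -0.062 and -0.10 (inguinal, epididymal, GFP+ and GFP- depots), and Col20a1 gave 0.30 in epididymal cells. With the other probe set, Col1a1 gave 0.038 and Col18a1 0.037 between depots in GFP+ cells, Col1a2 gave 0.060, -0.12, 0.18 and -0.059 (inguinal, epididymal, difference, GFP- depots), and Col5a2 gave -0.17, -0.23, -0.20 and -0.26 (inguinal, epididymal, GFP+ and GFP- depots). Quantile normalization turned Col5a2 to -0.016 in epididymal cells and -0.0080 in GFP- cells, and Col5a1 to 0.011 in inguinal cells. Median centring turned Col3a1, Col5a1, Col4a5 and Col6a3 to 0.0014, 0.033, 0.0029 and 0.011 in inguinal cells, Col5a2 to -0.028 in epididymal cells, and Col3a1, Col4a1, Col4a2 and Plod3 to 0.059, 0.041, 0.053 and 0.014 between depots in GFP+ cells. A pseudocount of 1 turned Col20a1 to -0.0004 in GFP- cells. Leaving out 1 array gave ranges across 0 for further values that were not called. In inguinal cells they were -0.059 to 0.0076 for Col3a1, -0.0202 to 0.034 for Col5a1, -0.052 to 0.0090 for Col4a5, -0.053 to 0.017 for Col6a3, -0.014 to 0.043 for P4ha2 and -0.016 to 0.030 for Plod3. In epididymal cells they were -0.017 to 0.013 for Col5a2, -0.22 to 0.084 for Col20a1, -0.55 to 0.094 for Mrc1 and -0.27 to 0.086 for Mmp13. Between depots in GFP+ cells they were -0.037 to 0.030 for Col3a1, -0.061 to 0.0019 for Col4a1, -0.041 to 0.013 for Col4a2 and -0.21 to 0.033 for Col18a1. For Col4a1 the difference was -0.013 to 0.049, and for Col20a1 in GFP- cells -0.054 to 0.086. The cause was not tested. The inguinal Col1a1 call was lost without a variance trend (adjusted p = 0.0591).

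Arrays with the same replicate number deviated from their group means with correlations of -0.057 to 0.044 (18 pairs), so the numbers were not taken to pair samples. With the replicate block 13 collagens were called in inguinal cells (4 higher, 9 lower), where the Col14a1 call (adjusted p = 0.0654) was among those lost, and 20, 16, 20 and 18 in the other comparisons, as without it. The number of arrays limits the precision of all values.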

Other observations

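Of the 36 collagens, 7 pairs are neighbours in the RefSeq gene table of GRCm38.p6, all but 1 of them with 0 protein-coding genes between. Beside the type IV and type VI pairs these are Col3a1 and Col5a2 on chromosome 1, whose epididymal changes were 0.082 ± 0.029 (adjusted p = 0.0316) and below 0.01 in size (adjusted p = 0.986), and Col9a1 and Col19a1, both weakly detected. Col18a1 lies next to Col6a1 on chromosome 10, with 2 protein-coding genes between. Col18a1 was lower (-1.28 ± 0.10) and Col6a1 higher (0.49 ± 0.10) in inguinal GFP+ cells. In epididymal GFP+ cells Col18a1, Col6a1 and Col6a2 were all lower (-0.35 ± 0.10, -1.13 ± 0.10 and -1.17 ± 0.10).

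Promoter windows were found for 27 of the 36 collagens, 30 windows in all. Of these 5 held TATAAA, 12 CCAAT and 17 GGGCGG on either strand, where the shares over all 32851 windows were 13.6%, 37.4% and 35.7%. No test was made of these counts.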
